A study of Mus musculus with 262 samples.

Results

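Type B and type A intercalated cells of the mouse kidney collecting duct were compared gene by gene, using 23 type B and 87 type A cells among the 235 single cells of the study. The cells of each type were those whose columns the authors had named for it. They came from kidneys of male C57BL/6 mice aged 2 months and were captured one to a chamber on a C1 microfluidic chip, with polyadenylated RNA amplified by PCR. The protocols state the same sex and age for the other samples. Cells had been sorted on the lectin DBA, which binds collecting duct cells, on the receptor c-Kit, on both, or on the lectin PNA. Among type A cells, 60 carried the sort label DBA with c-Kit, 25 carried c-Kit and 2 carried DBA. Among type B cells, 17 carried PNA, 4 carried c-Kit, 1 carried DBA and 1 carried DBA with c-Kit. Of the type A cells, 85 of 87 were thus sorted with c-Kit against 5 of 23 type B cells, so that sort and cell type cannot be told apart for most cells. The genes were then followed in samples that took no part in the naming: 2 bulk samples of c-Kit-sorted and 2 of DBA-sorted C57BL/6 kidney cells, 2 GFP-positive and 2 GFP-negative samples of the strain Atp6v1b1GFP, and 19 tubules dissected by hand from C57BL/6 mice, of which 11 were cortical collecting ducts (CCD) and 8 thick ascending limbs of the cortex (cTAL). Atp6v1b1 encodes a proton pump subunit of intercalated cells, so the reporter does not separate type A from type B. The other single cells, used only to place a level, were 74 principal, 32 non-epithelial and 19 proximal tubule cells.

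Intercalated cells correct the acid and base balance of the body. A type A cell secretes acid into the urine with a proton pump in its apical membrane and returns bicarbonate to the blood through the basolateral exchanger AE1, the product of Slc4a1. A type B cell has the opposite polarity: it secretes bicarbonate and takes up chloride through apical pendrin, the product of Slc26a4, and pumps protons toward the blood. Principal cells lie between them and carry the water and sodium channels of the duct.

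The labels name no mouse for any cell, and cells are not replicates, so each type counts as 1 sample and no test was made between the types. Levels are in TPM, transcript abundances scaled for gene length to a fixed total within a cell, which keep no read depth, so that the depth behind a cell's values is unknown. Type B cells had 1481 to 4307 genes at 1 TPM or more (median 2759) and type A cells 1092 to 4161 (median 2704). Mitochondrial transcripts made up 3.29% to 39.8% of the TPM in type B cells (median 11.1%) and 3.33% to 68.0% in type A cells (median 17.7%). No pair of columns was identical. No doublet caller was run. A difference is given below as a log2 ratio of the mean of type B cells to the mean of type A cells, each plus 1 TPM, and is above 0 where type B was higher. A gene was called where the means plus 1 TPM differed by at least 4-fold (a log2 ratio of 2) and at least 50% of the cells of the higher type had 1 TPM or more. Because the authors named the types from these same profiles, all values of the single cells are a description.

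The defining genes of each type followed the labels. The type B markers are Slc26a4, Hmx2, which encodes a homeobox transcription factor, and Insrr, which encodes a receptor tyrosine kinase that senses alkaline pH. All 3 were at 1 TPM or more in 18 of 23 type B cells (78.3%, 95% exact binomial interval 56.3% to 92.5%), and the other 5 cells had 2 of them. The type A markers are Slc4a1, Aqp6, which encodes a water and anion channel of intracellular vesicles, and Dmrt2, which encodes a DM-domain transcription factor. All 3 were present in 64 of 87 type A cells (73.6%, interval 63.0% to 82.4%), 2 were present in 12 cells and 1 in 6 cells. The remaining 5 type A cells (5.75%, interval 1.89% to 12.9%) had none of the 6 markers. These intervals cover counting error only. Leaving those 5 cells out kept 52 of the 57 and 99 of the 103 genes called below.

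Pendrin gave the clearest separation. Slc26a4 ranged from 191 to 2325 TPM in type B cells, with a median of 1135, and from 0 to 6.30 TPM in type A cells, of which 2 of 87 reached 1 TPM. No type B cell overlapped a type A cell, and Slc26a4 was the only one of the 8320 genes with a sufficient level for which this was so. Its log2 ratio was 9.97. Hmx2 ranged from 0 to 1116 TPM in type B cells (median 108, 19 of 23 cells at 1 TPM or more) and was at 94.4 TPM in a single type A cell and under 1 TPM in the other 86. Insrr ranged from 0.14 to 434.5 TPM in type B cells (median 109.9, 22 of 23 cells) and from 0 to 312.8 TPM in type A cells, where 6 of 87 reached 1 TPM. The log2 ratios were 6.71 for Hmx2 and 3.69 for Insrr. The groups of both overlapped. Almost no Hmx2 was found in a few type B cells, and almost no Insrr in a single one. As much Hmx2 as in a type B cell was found in a single type A cell, and as much Insrr in a few.

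On the type A side, Slc4a1 ranged from 0 to 961 TPM in type A cells (median 94.1, 77 of 87 cells at 1 TPM or more) and reached 4.95 TPM in 1 type B cell, the only one above 1 TPM. Its log2 ratio was -7.22. Dmrt2 ranged from 0 to 1901 TPM in type A cells (median 85.3, 73 of 87 cells) and never exceeded 0.68 TPM in a type B cell, with a log2 ratio of -7.80. Aqp6 ranged from 0 to 780 TPM in type A cells (median 55.4, 72 of 87 cells), and was under 1 TPM in 21 of 23 type B cells, while the highest type B cell had 138 TPM, with a log2 ratio of -3.96. The type A markers were thus absent from most type B cells, while each was also low in some type A cells.

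**Figure D1:**
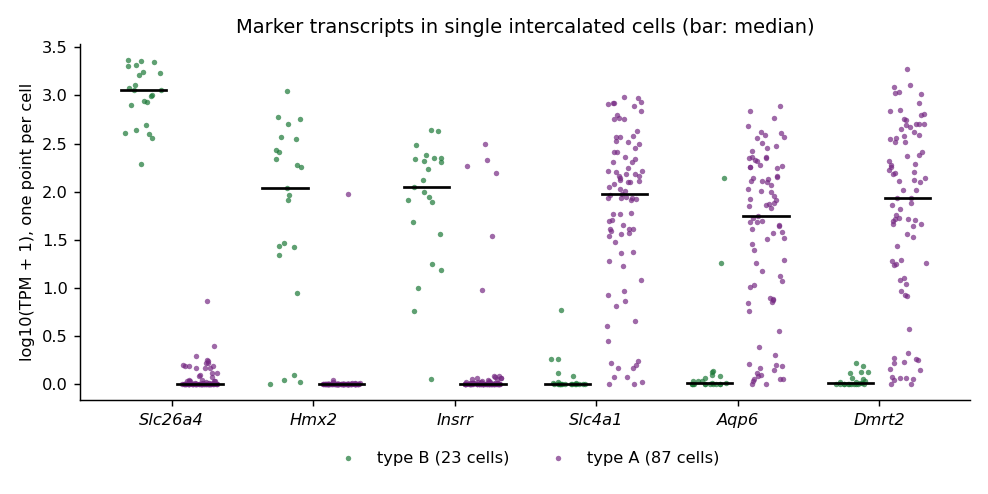
Levels of the 6 markers in each cell, as log10(TPM + 1), with 1 point per cell and a bar at the median of each type. For Slc26a4 every type B cell, at 191 TPM or more, lies above every type A cell, at 6.30 TPM or less; for the other 5 markers some cells of the higher type lie at the bottom with the other type.

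Cells with markers of both types were few. At least 1 type A marker was at 1 TPM or more in 3 of 23 type B cells (13.0%, 95% exact interval 2.78% to 33.6%), and at least 1 type B marker in 8 of 87 type A cells (9.20%, interval 4.05% to 17.3%). These intervals, too, cover counting error only. Shares in cell types that should lack these genes are given beside these, but are not a like background. None of those cells was sorted on PNA, unlike 17 of the 23 type B cells. All types were also named from these profiles, so a low share in type B cells may follow from the naming. At least 1 type A marker was found in 24 of 74 principal cells (32.4%), 18 of 32 non-epithelial cells (56.3%) and 7 of 19 proximal tubule cells (36.8%). At least 1 type B marker was found in 2 of 74 (2.70%), 4 of 32 (12.5%) and 2 of 19 (10.5%) of them. As a description, the share of type B cells with a type A marker lay below that of all 3 other cell types. The share of type A cells with a type B marker lay among theirs.

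The promoters of the markers are shown because those of the type B genes with the largest ratios, Slc26a4 and Hmx2, have the same short motif at nearly the same distance from the start. The 250 bases before the start were taken from RefSeq (GRCm38.p6), in which 4 of the 6 markers had an entry, and are written in the direction of the gene. Capitals mark TATAAA, the core of the TATA box, which places the transcription machinery. Slc26a4 lies on the minus strand and its window is chr12:31559985-31560234. Hmx2 has a window at chr7:131548507-131548756 on the plus strand and a second one downstream, with no match. Aqp6, at chr15:99600950-99601199, and Dmrt2, at chr19:25672161-25672410, are both on the plus strand.
Slc26a4: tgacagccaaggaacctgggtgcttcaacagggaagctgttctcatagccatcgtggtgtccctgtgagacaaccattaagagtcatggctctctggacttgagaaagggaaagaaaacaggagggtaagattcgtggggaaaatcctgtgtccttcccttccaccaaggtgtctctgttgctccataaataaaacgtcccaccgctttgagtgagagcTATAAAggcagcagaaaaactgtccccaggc
Hmx2: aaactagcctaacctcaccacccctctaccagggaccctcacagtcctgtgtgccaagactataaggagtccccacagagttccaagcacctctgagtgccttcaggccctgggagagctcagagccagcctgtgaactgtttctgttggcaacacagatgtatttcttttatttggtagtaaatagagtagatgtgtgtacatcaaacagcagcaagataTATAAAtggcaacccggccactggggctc
Aqp6: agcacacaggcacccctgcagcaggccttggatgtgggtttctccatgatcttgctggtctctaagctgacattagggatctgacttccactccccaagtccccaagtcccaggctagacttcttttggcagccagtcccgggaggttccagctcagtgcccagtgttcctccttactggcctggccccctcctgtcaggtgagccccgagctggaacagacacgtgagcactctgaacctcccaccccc
Dmrt2: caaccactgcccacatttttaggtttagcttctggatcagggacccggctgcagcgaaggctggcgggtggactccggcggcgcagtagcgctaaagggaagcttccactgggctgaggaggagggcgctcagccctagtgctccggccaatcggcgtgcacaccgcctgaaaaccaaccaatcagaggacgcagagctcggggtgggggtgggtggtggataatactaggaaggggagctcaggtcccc

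TATAAA lay at -31 to -26 from the start of Slc26a4 and at -29 to -24 from the first start of Hmx2, and in neither Aqp6 nor Dmrt2. TGTTTAC, a forkhead core, and CAAGTG, an NK homeobox core, were also searched, all 3 motifs on both strands, and none of the windows of these 4 genes held either. The 3 motifs do not overlap one another. TGTTTAC occurred in 3.54% and CAAGTG in 13.2% of all windows. TATAAA occurred in 14.3% of 27025 genes with a window and in 7.88% of the 6143 of these that were measured in the cells. It occurred in 3 of 40 genes called higher in type B (7.50%) and 11 of 69 called higher in type A (15.9%). A match of letters is a description of the window and not a site shown to be used.

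Of 47069 genes, 8320 averaged at least 5 TPM over the 2 type means. The call was met by 57 genes higher in type B, which is 0.685% of those measured, and by 103 genes higher in type A, which is 1.24%. The median log2 ratio of all measured genes was -0.11. The rule on cells decided these counts, since the 4-fold difference alone was met by 736 genes in type B and 1229 in type A, most of them seen in under 50% of cells of the higher type. In a mean over few cells, 1 cell can carry such a ratio. With the cells quantile-normalized the counts were 70 and 209, and the median of all measured genes was -0.47. Of the 57 genes, 47 had a higher mean in type B than in any other of the 5 cell types. Of the 103 genes, 42 had their highest mean in type A, 28 in principal cells, 19 in non-epithelial cells and 14 in proximal tubule cells. The share of all measured genes with their highest mean in each cell type was not counted, so these counts only describe the called genes. The call had already required a higher mean in 1 type than in the other. Most type B cells were sorted on PNA and no cell of another type was, and the part of the sort in these counts was not tested.

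Among anion exchangers, 4 of 15 listed genes were measured and the call was met by 1 in each direction, Slc26a4 and Slc4a1. Slc4a9 encodes AE4, a basolateral transporter used as a marker of type B and other non-A cells. It ranged from 0.06 to 1332 TPM in type B cells (median 424, 21 of 23 cells) and from 0 to 1592 TPM in type A cells (median 76.4, 68 of 87 cells). The groups overlapped along their whole range and the log2 ratio was 0.82, so that Slc4a9 transcripts were common in both types. Under 17 alternative settings of the comparison the ratio was 0.12 to 2.46, and Slc4a9 was called for type B under 2 of them. Slc4a2, which encodes the widespread exchanger AE2, averaged 22.5 TPM in type B and 30.2 TPM in type A cells.

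The proton pump did not separate the types. Of 26 listed names of subunits and accessory genes, 25 were found (Atp6v0a3 was not a symbol in the data) and 21 were measured. None was called, and 15 were above and 6 below a log2 ratio of 0, with a median of 0.44 and a range of -0.98 to 1.35. The summed level of the list per cell was 12217 to 33473 TPM in type B (median 25517) and 30.4 to 37156 TPM in type A (median 18633). Atp6v1g3, a subunit of the intercalated cell form, averaged 3946 TPM in type B and 2451 TPM in type A cells. Atp6v1c2 averaged 1476 and 763 TPM and Atp6v0d2 1060.2 and 809.7 TPM, in the same order. Atp6v1b1 and Atp6v0a4, the subunits whose loss causes distal renal tubular acidosis, leaned the other way, with 317 and 521 TPM for Atp6v1b1 and 387 and 564 TPM for Atp6v0a4. Atp6v1b2, the subunit found in most tissues, averaged 269.98 TPM in type B (18 of 23 cells) and 112.8 TPM in type A cells (43 of 87), a log2 ratio of 1.25. All of these stayed within 4-fold. The gastric proton pump gene Atp4a averaged 1.17 TPM in type B and 29.6 TPM in type A cells and was seen in 5 of 23 and 18 of 87 of them, too few for a call.

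The genes that mark intercalated cells as a class were found in both types. None of the 9 listed genes was called, their median log2 ratio was 0.39 and their range -0.71 to 1.42, but Foxi1 was called for type B with mean logs (3.71), medians (3.91) and trimmed means (2.19). Foxi1, the forkhead factor that specifies intercalated cells, was the highest of them. It ranged from 0.16 to 1699.9 TPM in type B cells (median 396, 22 of 23 cells) and from 0 to 1768 TPM in type A cells (median 25.5, 58 of 87 cells). Hepacam2, an adhesion protein of intercalated cells, had the same pattern, with 22 of 23 type B and 61 of 87 type A cells at 1 TPM or more and a log2 ratio of 1.09. The ammonia transporter genes Rhcg and Rhbg had ratios of 0.36 and -0.39. Foxi1 and Hepacam2 were hence found in nearly every type B cell and in a smaller share of type A cells, with complete overlap in level.

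Carbonic anhydrases supply the protons and bicarbonate that both types move. Of 14 listed carbonic anhydrase and ammonia transporter genes 7 were measured, with a median log2 ratio of 0.36, and 1 was called, Car15, higher in type B. Car2, the abundant cytosolic enzyme, was detected in every cell of both types, at 659 to 10240 TPM in type B (median 5208) and 13.0 to 20163 TPM in type A (median 9853). Its log2 ratio was -0.89, and the median type B cell lay below the median type A cell. Car12, a membrane enzyme, leaned toward type B, with 23 of 23 cells against 78 of 87 and means of 612 and 225 TPM, a log2 ratio of 1.44. Car15, another membrane-bound form, averaged 3005 TPM in type B and 618 TPM in type A cells, a log2 ratio of 2.28. Car15 exons overlap those of Gm20518 on the same strand, so its level is uncertain even if reads were counted by strand. Car4 passed 4-fold (log2 ratio 3.29) through a single type B cell and was not called.

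Among 28 listed chloride and cation transport genes, 16 were measured, none was called, and the median log2 ratio was 0.18. Fxyd2, the gamma subunit that modulates the sodium pump, ranged from 6.09 to 29274 TPM in type B (median 11451) and from 1.52 to 23006 TPM in type A (median 3451), a log2 ratio of 1.35. Bsnd, the subunit barttin of the kidney chloride channels, averaged 93.2 and 168 TPM. Clcn5, an endosomal chloride and proton exchanger, averaged 34.9 and 103 TPM. Of 10 aquaporin genes 4 were measured and 2 were called, Aqp6 and the principal cell channel Aqp2, both higher in type A. Aqp3, the basolateral water channel of principal cells, averaged 244 TPM in type B and 148 TPM in type A cells.

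Transcription factors leaned toward type A. Of 32 listed factors 21 were measured, with 7 above and 14 below a log2 ratio of 0 and a median of -1.17, against -0.11 for all measured genes. Hmx2 was called for type B, and Dmrt2 and Gata3 for type A. Gata3, a zinc finger factor of the distal nephron, ranged from 0.61 to 1346 TPM in type A cells (median 103, 84 of 87 cells) and from 0 to 223 TPM in type B cells (median 0.39, 10 of 23 cells), and its mean was higher still in principal cells, at 504 TPM. Tfcp2l1, which patterns the collecting duct, averaged 371 TPM in type B and 793 TPM in type A, a log2 ratio of -1.09. The metabolic regulators Esrrg and Ppargc1a had ratios of -1.93 and -1.89, with Esrrg in 5 of 23 type B and 44 of 87 type A cells. The mineralocorticoid receptor gene Nr3c2 leaned the other way, with 12 of 23 type B and 23 of 87 type A cells and a log2 ratio of 1.52.

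Of 36 listed receptor genes 17 were measured, with a median log2 ratio of -0.19. Insrr was called for type B, and Kit and Adgrf5 for type A. Adgrf5, an adhesion receptor known to act on proton secretion in type A cells, ranged from 0.02 to 754 TPM in type A (median 106, 80 of 87 cells) and reached at most 13.0 TPM in type B (4 of 23 cells), a log2 ratio of -5.87. Kit, the stem cell factor receptor whose protein is c-Kit, ranged from 0 to 1725 TPM in type A (median 184, 82 of 87 cells) and from 0 to 332 TPM in type B (median 0.01, 6 of 23 cells), a log2 ratio of -2.63. Kit is also the sort marker of most type A cells, so this difference is not independent of the sort. P2ry14, a receptor for UDP-glucose that has been studied in intercalated cells, was in 28 of 87 cells of type A but 1 of 23 of type B (log2 ratio -4.16) and missed the call on its share of cells. Casr, the calcium-sensing receptor gene, was in 9 of 23 type B and 5 of 87 type A cells (2.21) and missed it as well. Oxgr1, the receptor for alpha-ketoglutarate described in type B cells, was in 16 of 23 type B and 76 of 87 type A cells, with means of 127 and 247 TPM. Oxgr1 was therefore not restricted to type B in these cells.

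**Figure D2:**
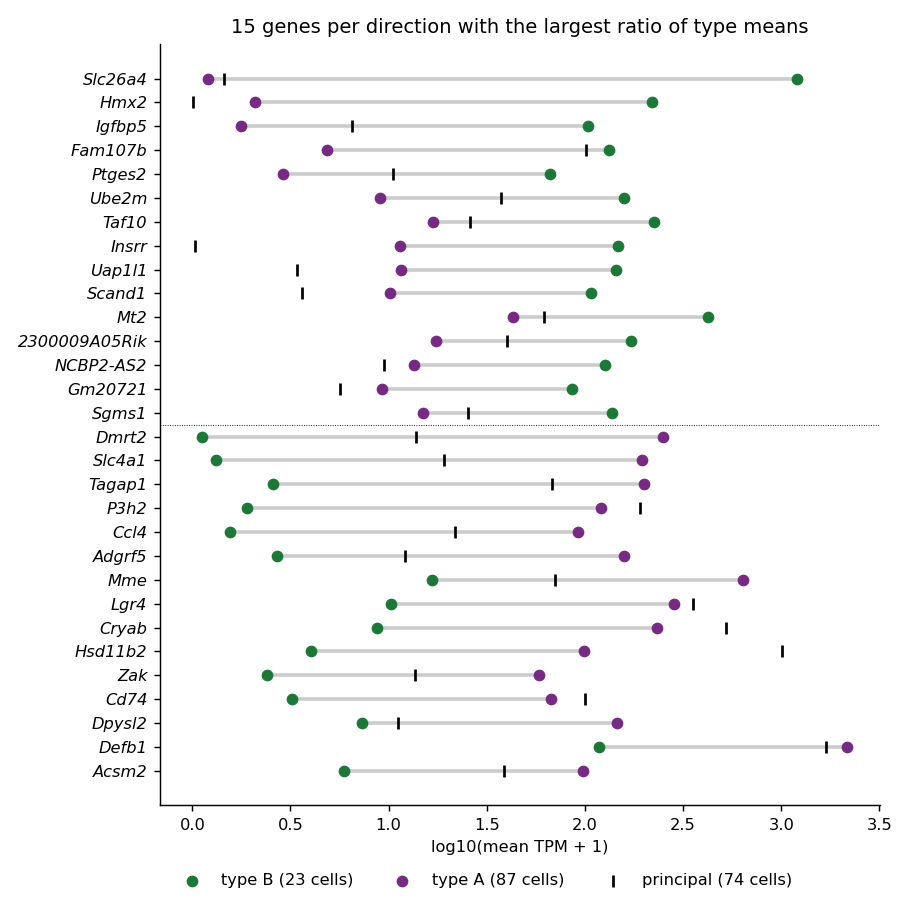
Mean level in type B cells, type A cells and, as a tick, principal cells, as log10(mean TPM + 1), for the 30 genes with the largest differences, 15 in each direction, among called genes with at least 50 TPM in the higher type. Slc26a4 has the widest gap of the type B genes (1201 against 0.20 TPM) and Dmrt2 of the type A genes (248 against 0.12 TPM).

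Beyond the listed groups, the 15 type B genes with the largest ratios held 12 genes besides the 3 markers. Igfbp5, a secreted binding protein of insulin-like growth factors, ranged from 0 to 789 TPM in type B (median 32.8, 18 of 23 cells) and reached 26.2 TPM in type A (6 of 87 cells), a log2 ratio of 5.87. Ptges2, a prostaglandin E synthase, was in 12 of 23 type B cells and had a log2 ratio of 4.52. Ube2m, the conjugating enzyme for NEDD8, had a ratio of 4.12, and Sgms1, a sphingomyelin synthase, 3.19. Fam107b had a ratio of 4.77 but also had means of 99.7 TPM (principal cells) and 203 TPM (proximal tubule). The other genes were Taf10, Uap1l1, Scand1, Mt2, 2300009A05Rik, NCBP2-AS2 and Gm20721, with ratios of 3.20 to 3.74. Of the 12, Taf10, Scand1, Mt2, 2300009A05Rik, Gm20721 and Sgms1 overlap exons of a gene model on the other strand. Their counts may be split or merged if reads were not counted by strand. NCBP2-AS2 was not found by name in the gene annotation, so its overlaps were not looked up. Mt2 also has close paralogs, so its counts are uncertain in any case. These 12 genes were detected in 12 to 18 of the 23 cells, so their type B means rest on part of the cells.

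Further genes were picked after their values were seen. Thbs1, encoding the matrix protein thrombospondin 1, was in 14 of 23 type B and 2 of 87 type A cells, and Tmem163, a vesicular zinc transporter gene, in 12 of 23 and 1 of 87. Together with Slc26a4, Hmx2, Insrr and Igfbp5 these were the 6 called type B genes found in under 10% of type A cells. Of the 17 alternatives, 13 kept the call of Thbs1 and 15 that of Tmem163. Both calls were lost at a detection level of 10 TPM and with the higher-numbered type B cells alone. Syn2, which encodes the synaptic vesicle protein synapsin II, was in 18 of 23 type B and 20 of 87 type A cells, with a log2 ratio of 2.59. Iscu, the scaffold protein for iron-sulfur clusters, was in 22 of 23 and 43 of 87 cells (2.98), and Bsg, the chaperone basigin of lactate transporters, in 23 of 23 and 73 of 87 cells (2.22). Spink8 lay at the threshold, with a log2 ratio of 2.00, and Mt1 next to it at 2.01.

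The type A genes with the largest ratios included enzymes and surface proteins. Mme, encoding the peptidase neprilysin, ranged from 0 to 2462 TPM in type A (median 409, 81 of 87 cells) and from 0 to 155 TPM in type B (median 1.11, 12 of 23 cells), a log2 ratio of -5.27. Lgr4, a receptor for R-spondins, was in 83 of 87 type A and 7 of 23 type B cells, a ratio of -4.78, and its mean in principal cells, 354 TPM, was above that of type A, 283 TPM. Defb1, encoding the antimicrobial peptide beta-defensin 1, was in every type A cell at 2.29 to 6438 TPM (median 1941) and ranged from 0.07 to 981 TPM in type B (median 7.20, 18 of 23 cells), a ratio of -4.20. In 2 genes called for type A no type B cell reached 1 TPM. These were Dmrt2 and Pitpnc1, a phospholipid transfer protein gene chosen after its values were seen, which was in 51 of 87 type A cells at up to 320.4 TPM. Tagap1, P3h2, Zak, Dpysl2, Cryab and Acsm2 had ratios of -6.27 to -4.05. Only Tagap1 and Zak of these had their highest mean in type A. Acsm2 reached a mean of 1148 TPM in proximal tubule cells, above its 96.5 TPM for type A. Cryab stood at 527 (proximal tubule) and 520 TPM (principal), above 232 TPM (type A). Dpysl2 was higher in non-epithelial cells (358 over 145 TPM) and P3h2 in principal cells (190 over 120 TPM). Acsm2 lost its call with mean logs, medians and detection at 10 TPM (ratios -4.82 to -0.58 over the 17 alternatives). Tagap1, P3h2 and Cryab overlap exons of gene models on the other strand, and Tagap1 and Acsm2 have close paralogs. Zak was not found by name in the gene annotation, so its overlaps were not looked up.

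Several of the type A genes mark other cell types. Hsd11b2, which protects the mineralocorticoid receptor from glucocorticoids and is a principal cell gene, had a mean of 97.5 TPM for type A against 3.01 TPM for type B and 1009 TPM for principal cells. Aqp2 was in 58 of 87 type A and 3 of 23 type B cells, with means of 49.1, 2.46 and, in principal cells, 2142 TPM. The type A cells differed by running number, with Aqp2 in 15 of the 43 lower-numbered (median 0 TPM) and 43 of the 44 higher-numbered cells (median 16.5 TPM). The calls of Aqp2, Hsd11b2, P3h2 and Cryab were lost with the lower-numbered type A cells alone, with medians and at a detection level of 10 TPM. Over the 9 principal cell markers the summed level was 0.07 to 2926 TPM in type B (median 144, Avpr2 in no cell), 0.27 to 7772 TPM in type A (median 239.6) and 1840.01 to 40537 TPM in principal cells. Of the 7 measured, 2 were called for type A. The macrophage genes Cd74 and Ccl4, with means of 65.8 and 90.7 TPM for type A against 2.22 and 0.56 TPM for type B, were at 31135 and 6963 TPM in non-epithelial cells. Over 8 macrophage markers the sum was 0 to 450 TPM in type B (median 0, with Ptprc, Lyz2, C1qa, C1qc and Csf1r in no cell), 0 to 3120 TPM in type A (median 29.0) and 10948 to 91099 TPM in non-epithelial cells. Of the 5 measured, Cd74 and C1qb were called for type A, and C1qb lost its call under 7 of 17 alternatives (log2 ratios -5.82 to -1.02). The mast cell gene Cpa3 was in 2 of 87 type A cells, at up to 6459 TPM, and no listed mast cell gene was in a type B cell. Without those 2 cells 54 of the 57 and 101 of the 103 genes were still called, C1qb not among them. The part of low levels of other cells' transcripts in the type A calls was not tested.

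Other groups showed no call or a single one. The 21 listed nuclear mitochondrial genes were all measured and none was called, with 16 above and 5 below a log2 ratio of 0 and a median of 0.45. Atp5b, a subunit of ATP synthase, averaged 6008 TPM in type B and 3218 TPM in type A, and Cox8a, of cytochrome oxidase, 4772 and 2266 TPM. All 17 immediate early and stress genes were measured, and Jund was called, higher in type B at a log2 ratio of 2.82, with a list median of 0.36. The call of Jund was lost with mean logs, medians, detection at 10 TPM and quantile normalization (1.08), under which 3 other genes of the list were called for type B. Fos averaged 1125 and 871 TPM. Of 23 junction and epithelial genes 13 were measured and none was called. Of 14 Notch pathway genes 3 were measured and none was called, with means for the ligand gene Jag1 of 245 and 254 TPM. None of the 6 measured of 17 genes for lectin-bound glycans was called, and their ratios were 0.02 to 0.89, with 2 of 4 above 0 after quantile normalization. Of 12 defence genes 5 were measured and Defb1 was called. Spp1, which encodes the phosphoprotein osteopontin, leaned toward type B, at 4.08 to 17469 TPM (median 4906) against 0.58 to 10312 TPM (median 1190), a log2 ratio of 1.72. It was called for type B under 4 of 17 alternatives (log2 ratios 0.81 to 2.40). Klk1, the tissue kallikrein of the connecting tubule, was called for type B, at 1.89 to 113272 TPM (median 914, 23 of 23 cells) against 0.14 to 40771 TPM (median 207, 78 of 87 cells), a ratio of 2.63. Klk1 belongs to a family of close copies and its counts are uncertain.

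Markers of further cell types gave little. Of 5 thick ascending limb markers 4 were measured and none was called (median log2 ratio -0.63). Their summed level per cell was 0 to 4399 TPM in type B (median 14.2) and 0 to 18121 TPM in type A (median 0.28). The median ratio of means was thus below 0, while the median cell had the higher sum in type B. Of 7 proximal tubule markers 1 was measured and not called. Of 6 distal convoluted and connecting tubule markers 3 were measured, of which Klk1 was called (median 0.32). None of the 6 B lymphocyte, 5 endothelial and stromal and 5 red cell markers was measured, and none of the B lymphocyte and red cell markers reached 1 TPM in any type A or type B cell.

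**Figure D3:**
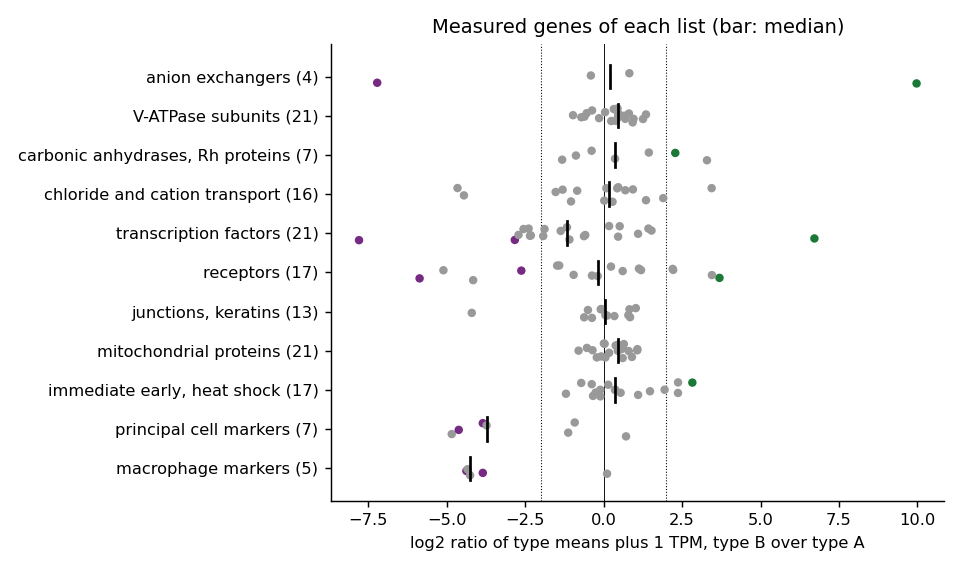
Log2 ratio of type B to type A means for each measured gene of 11 of the listed groups, with a bar at the list's median, dotted lines at 2 and -2, and called genes in green (type B) or purple (type A). All proton pump (V-ATPase) and mitochondrial genes lie between the dotted lines, from -0.98 to 1.35 for the pump, while the exchangers Slc26a4 and Slc4a1 lie at 9.97 and -7.22.

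Type B cells were not uniform. Kit and high levels of Car15 were not found in the same type B cell. Kit was at 1 TPM or more in 6 of 23 type B cells, all of them above 100 TPM, and Car15 in these 6 cells was only 0.29 to 21.5 TPM (median 0.92). Car15 was at 1000 TPM or more in 14 cells (1063 to 17430 TPM), in which Kit was at most 0.12 TPM. No cell passed both of these limits, which differ between the genes. At 1 TPM for each gene, the type B cells numbered 4, 5 and 9 had both, with Car15 at 2.39, 1.05 and 21.5 TPM. Kit was under 1 TPM with Car15 under 100 TPM in 2 cells. The remaining cell had Kit under 1 TPM with Car15 between 100 and 1000 TPM. Slc26a4 was present in all 23.

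The columns of type B cells carry running numbers that follow no stated order. Of the 11 cells with the lower numbers 6 had Kit and 3 had Car15 at 1000 TPM or more, while of the 12 with the higher numbers none had Kit and 11 had Car15 at that level. Medians of several genes also differed between the lower and the higher numbers, with ranges that overlapped. Median Car15 was 19.6 TPM in the lower and 3557 TPM in the higher numbers, median Spp1 1006 and 8190.0 TPM, and median Klk1 86.8 and 6167 TPM. The markers divided less than these, with medians for Slc26a4 of 1198 and 934 TPM, for Insrr of 86.5 and 153 TPM and for Hmx2 of 28.4 and 203 TPM. Fos and Slc4a9 had the higher median in the lower numbers, at 321 and 9.2 TPM for Fos and 430 and 181 TPM for Slc4a9. The labels give 6 type B cells not sorted on PNA and 17 sorted on PNA, but the sort label could not be tied to a column, so whether these differences follow the sort was not tested. With the 11 lower-numbered type B cells alone, Car15 (log2 ratio 1.37), Kit (-1.58) and Gata3 (-1.89) did not reach 4-fold against type A.

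**Figure D4:**
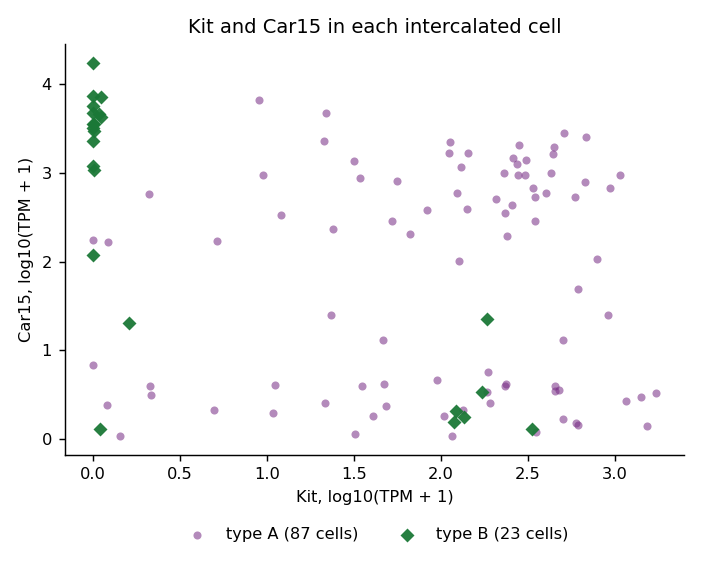
Kit against Car15 in each type B and type A cell, each as log10(TPM + 1). The 6 type B cells with Kit lie at Car15 of 21.5 TPM or less and the 14 with Car15 of 1000 TPM or more lie at a Kit of 0.12 TPM or less, whereas type A cells have Kit in 82 of 87 cells across the range of Car15.

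Bulk samples gave replicated measurements. Among cells sorted on c-Kit or on DBA, markers of both types were higher with c-Kit, but by different amounts. Slc26a4 was at 481 and 457 TPM in the 2 c-Kit samples and 79.2 and 66.7 TPM in the 2 DBA samples, a log2 difference of 2.67 (SE 0.0904, adjusted p = 6.06e-06, limma with Benjamini-Hochberg adjustment, two-sided). Slc4a1 was at 1763 and 1692 TPM against 28.6 and 34.6 TPM, a log2 difference of 5.73 (SE 0.0941, adjusted p = 5.78e-07, limma). Both differences were much larger than the spread between the 2 samples of a sort. The other type B markers were also higher with c-Kit, by 1.92 for Hmx2 (adjusted p = 2.76e-05) and 2.34 for Insrr (2.15e-05), against 5.02 for Aqp6 (8.29e-06) and 4.92 for Dmrt2 (1.09e-06), all by limma. Kit itself was 5.30 higher on the log2 scale, with 757 and 755 TPM against 17.9 and 18.5 TPM. The 3 type B markers thus differed by 1.92 to 2.67 and the 3 type A markers by 4.92 to 5.73, with no test made of one set against the other. In bulk samples, fewer cells of a type and less RNA per cell cannot be told apart. No source says that replicates came from separate mice, so the p-values measure only the spread between these samples.

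Of the 57 genes called for type B, 30 were higher with c-Kit, 13 were higher with DBA and 14 were not called by limma. Of all 14341 genes tested, 16.1% were higher with c-Kit and 28.1% with DBA (2315 and 4033 genes, or 3055 and 3072 after quantile normalization). Without the first or the second DBA sample 3600 and 3458 genes were called in all, against 6348. The median log2 difference of the 57 was 0.32, against -0.11 for all genes. Of 99 tested type A genes 27 were higher and 28 lower with c-Kit, and their median was 0.04. Car15 was lower with c-Kit, at 601 and 622 TPM against 1061 and 1005 TPM (log2 difference -0.75, SE 0.0593, adjusted p = 1.41e-04, limma). Igfbp5 was also lower (-0.50, adjusted p = 0.0101), a call lost without the filter on low levels (0.219) and without either second sample (0.0696 and 0.0824). Syn2 and Tmem163 were higher with c-Kit by 3.46 and 2.61, and Klk1 by 2.75. The type A genes Adgrf5 and Mme were higher by 4.54 and 4.15, Defb1 by only 0.65 (adjusted p = 8.45e-04, 0.0974 without the filter), while Gata3 was lower, with a log2 difference of -0.64. DBA-sorted samples were rich in principal cell RNA, with Aqp2 at 13651 and 11545 TPM against 1526 and 1082 TPM, and its part in the lower calls was not tested.

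GFP-positive cells of the Atp6v1b1 reporter strain held RNA of both types. Slc26a4 was at 829 and 595 CPM (counts divided by library size and scaled) in the GFP-positive and 7.08 and 3.10 in the GFP-negative samples, a log2 difference of 7.12 (SE 0.43, adjusted p = 4.31e-05, edgeR quasi-likelihood test with Benjamini-Hochberg adjustment). Slc4a1 was at 1632 and 3260 against 37.8 and 20.0 CPM (6.40, adjusted p = 5.34e-05, edgeR). Hmx2, Insrr, Aqp6 and Dmrt2 were higher by 7.01, 6.79, 6.48 and 6.30, with adjusted p of 4.31e-05, 2.41e-05, 1.20e-04 and 4.31e-05 by edgeR. The 6 differences were thus 6.30 to 7.12, with no test made of the markers of one type against those of the other. Without the second GFP-positive sample they were 6.90 to 7.34 for the type B markers and 5.33 to 5.82 for the type A markers, Aqp6 being the lowest. With limma on RPKM they ran from 3.70 for Hmx2 to 6.66 for Aqp6. The 2 GFP-positive samples differed in opposite ways: the first had more Slc26a4 and Insrr, and the second more Slc4a1, Aqp6 and Dmrt2. Of 55 tested type B genes 15 were higher, 6 lower and 34 not called, against 15.2% and 17.3% of all 15671 genes. Of 92 type A genes 37 were higher and 17 lower. The medians were -0.05 and 0.42, against 0.02 for all genes. Car15 was higher in GFP-positive cells, with 399 and 570 against 56.4 and 96.5 CPM (2.66, adjusted p = 2.65e-04), and Igfbp5 did not pass (-0.05, adjusted p = 0.928, edgeR). Kit, Foxi1, Klk1, Defb1 and Gata3 were higher by 6.02, 6.90, 3.97, 2.95 and 2.97. Gene totals were 35530885 to 40815091 counts per sample.

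Dissected tubules placed the markers along the nephron without a sort. In the 11 CCD tubules Slc26a4 was at 746 to 1556 TPM (median 1057), Hmx2 at 58.5 to 300.01 TPM (median 197) and Insrr at 101 to 340.4 TPM (median 158). Slc4a1 was at 122 to 442 TPM (median 339), Aqp6 at 40.0 to 136 TPM (median 77.2) and Dmrt2 at 30.8 to 106 TPM (median 69.1). In the 8 cTAL tubules none of the 6 exceeded 2.20 TPM. Every CCD tubule lay above every cTAL for all 6 markers, a pattern met by 3.41% of 13495 genes, and by 10 of the 56 type B and 17 of the 102 type A genes found in the table. The other type B genes among the 10 were Spink8, Syn2, Tmem163, Tdrp, Acot3, Uap1l1 and Grn, most of them named because of this count. Spink8 was at 902 to 1797 TPM in CCD (median 1328) and at most 7.58 TPM in cTAL, Tmem163 at 19.4 to 76.8 TPM (median 58.3) against at most 0.27 TPM, and Syn2 at 0.16 to 110.5 TPM (median 85.1) against at most 0.14 TPM. Spink8 and Tmem163 were thus found in every CCD tubule and near 0 in every cTAL, while Syn2 was almost absent from 1 or more CCD tubules.

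Every CCD tubule lay below every cTAL for 2.11% of genes and for 2 genes of each set. For type B these were Klk1, at 79.0 to 582 TPM in CCD and 3526 to 13154 TPM in cTAL, and Gsto1, a glutathione transferase gene, at 31.4 to 70.3 TPM and 147 to 284 TPM. Spp1, not called in the cells, was also lower in CCD, at 311 to 1150.2 TPM against 4066 to 6319 TPM. These genes were hence higher in type B cells or leaned that way, and higher in a segment in which Slc26a4 did not exceed 2.20 TPM. Car15 overlapped between the segments, at 438 to 2199 TPM in CCD and 113 to 1911 TPM in cTAL, and so did Igfbp5, while Adgrf5 (15.5 to 82.7 against at most 4.33 TPM) and Defb1 (1683 to 2857 against 311 to 727 TPM) did not.

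The balance of the exchangers differed between preparations. The ratio of Slc26a4 to Slc4a1, both in TPM, was 2.63 to 6.84 in the 11 CCD tubules (median 4.17), 2.77 and 1.93 in the DBA-sorted samples and 0.273 and 0.270 in the c-Kit-sorted samples. Every CCD tubule thus had more pendrin than AE1 RNA, and both c-Kit-sorted samples had less. The tables were normalized separately, and no test was made across them.

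Among the 11 CCD tubules, 5 relations with Slc26a4 were computed on log2(TPM + 1). Slc26a4 varied with Insrr (Pearson r = 0.78, permutation p = 0.00542, adjusted 0.0271; Spearman rho = 0.67, permutation p = 0.0276, adjusted 0.0691) and with Slc4a1 (r = 0.72, permutation p = 0.0149, adjusted 0.0373; rho = 0.75, permutation p = 0.00998, adjusted 0.0499). It did not pass with Hmx2 (r = 0.07, rho = 0.20, adjusted permutation p = 0.941 and 0.699), Aqp6 (r = 0.03, rho = 0.20, 0.941 and 0.699) or Dmrt2 (r = 0.30, rho = 0.09, 0.626 and 0.795). Insrr thus passed by Pearson's r alone and Slc4a1 by both measures, and the relations were not tested against each other. Without the 2 tubules farthest from the median of Slc26a4, r was 0.66 with Insrr (adjusted permutation p = 0.207) and 0.60 with Slc4a1 (0.207), so that neither passed without them. The 11 tubules carry 7 prefixes in their column names, 4 of them on a pair of tubules, and over the 7 prefix means r was 0.70 and 0.66 (adjusted permutation p = 0.252 for each).

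**Figure D5:**
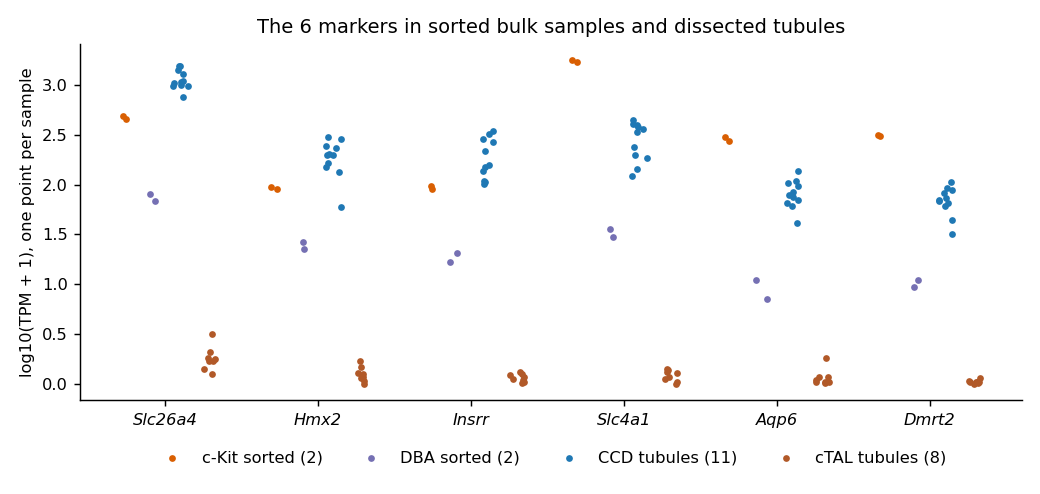
Levels of the 6 markers in the 2 c-Kit-sorted and 2 DBA-sorted bulk samples, 11 CCD and 8 cTAL tubules, as log10(TPM + 1), with 1 point per sample. Both c-Kit points lie above both DBA points for each marker, and no cTAL tubule exceeds 2.20 TPM.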

How the data were processed

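The values are tables that the authors deposited. Processing notes of the submitters name STAR 2.5.1b, RSEM 1.2.31, Seurat and GRCm38.p5. The deposited TPM tables hold values for cells, tubules and the bulk samples sorted on c-Kit or DBA; the unit of the tubule table was read from its column sums. For the GFP samples the authors deposited read counts per gene from HTSeq and RPKM values, which their file names place on RefSeq mm10. Whether counting used strand is not given in the sources here. Reads outside genes were 66.7% to 72.8% of those listed and stayed out of library sizes. No deposited per-sample column was unused (0).

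Samples were grouped by title, and columns by their names. The members, gene lists and rules were chosen with earlier results of these data known. Types were compared by log2((mean TPM + 1) ratio), with a limit of 2, among genes whose type means averaged at least 5 TPM and with at least 1 TPM in 50% of the cells of the higher type. Named genes are those of the lists and the 15 per direction with the largest ratio among called genes with at least 50 TPM in the higher type; others are said to be chosen by their values. The 26 lists held 319 gene names, of which 1, Atp6v0a3, was not found. The c-Kit and DBA samples were compared with limma 3.58.1 (trend, log2(TPM + 1), mean of at least 1 TPM). GFP counts were compared with edgeR 4.0.16 (TMM, filterByExpr, quasi-likelihood test), with DESeq2 1.42.0 as an alternative, in R 4.3.3. P-values are two-sided and adjusted by Benjamini-Hochberg over all genes tested, called under 0.05. Tubule relations used 100000 permutations, and shares of cells have 95% Clopper-Pearson intervals. Scripts were tested on simulated data. Alternatives covered pseudocounts, filters, the mean, normalization, subsets of cells and left-out samples.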

Additional observations from a re-analysis of the deposited data

How the results depend on the processing

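The 57 genes called for type B became 286 with the mean of log2 values per cell, 678 with medians and 252 with 10% trimmed means, 736 with no minimum share of cells, 87 with the type A cells of higher running number, 113 and 93 with the type B cells of lower and higher number, and 89 with cells of at least 2000 genes (19 and 75 cells, chosen after seeing the data). The 103 for type A became 161, 252 and 1229 with mean logs, medians and no minimum share, 57 at a detection level of 10 TPM, 209 with quantile normalization and 261 with the type B cells of higher number. Of the 57 and the 103, 56 and 92 were called with trimmed means, 48 and 72 with medians, and 46 and 96 with quantile normalization. Fewer of the 57 were kept with the type B cells of lower number (39 and 67) and of higher number (42 and 95). At a detection level of 10 TPM 43 and 57 were kept. The share of type B among calls, 35.6%, was 64.0% with mean logs, 72.9% with medians, 62.7% with trimmed means and 25.1% with quantile normalization. Of 53 called genes followed singly, 24, the 6 markers among them, were called under all 17 alternatives. For c-Kit against DBA, 6348 genes became 2253 with no filter and 3458 to 5701 with a sample left out, where the lone sample is assumed to vary like the other group. For GFP, 5101 became 1550 with limma on RPKM and 3616 to 4211 with a sample left out. The 2 CCD relations that passed became 1 without logarithms, 0 without the 2 outer tubules and 0 over prefix means. The cause of these changes was not tested. None of the genes followed singly, which leaves out most of the called genes, changed direction with a call.

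With the replicate number as a block, 6271 genes were called between c-Kit and DBA and 5897 between GFP-positive and GFP-negative samples. Deviations of same-numbered samples correlated at 0.0264 and 0.143, over 2 pairs each, so the numbers were not taken as pairs; headers of the RPKM table do name a first and a second experiment. TPM keeps no depth, and a gene at 0 in a cell may have been missed in amplification.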

Other observations

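Some genes that lay near the 4-fold limit in the single cells also differed between the bulk samples and, of these, Edn3, Alcam, Tdrp and Acot3 between the tubule segments. They were chosen after their values were seen, and their place here is a description. Edn3, which encodes the vasoactive peptide endothelin 3, was higher in type A (means 145 and 34.5 TPM, in 45 of 87 type A and 7 of 23 type B cells, log2 ratio -2.04). It was at 132 and 139 TPM in the c-Kit samples against 9.28 and 6.64 TPM in the DBA samples (log2 difference 3.94, adjusted p = 8.25e-06, limma) and was higher in GFP-positive cells by 4.56 (adjusted p = 2.77e-05, edgeR). In CCD tubules Edn3 was at 14.3 to 98.9 TPM and in cTAL at most at 0.11 TPM. Its call in the single cells was lost under 8 of the 17 alternatives. Alcam, a cell adhesion gene, had a log2 ratio of -2.05, with its call lost under 5 of the 17 alternatives, and was higher with c-Kit by 2.75 (adjusted p = 3.91e-05, limma) and in GFP-positive cells by 1.94 (adjusted p = 4.63e-04, edgeR). In CCD it was at 18.6 to 78.8 TPM against at most 8.84 TPM in cTAL.

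On the type B side, Tdrp had means of 226 and 52.1 TPM (13 of 23 type B and 24 of 87 type A cells, log2 ratio 2.10). It was at 130.5 and 128 TPM with c-Kit against 30.2 and 29.4 TPM with DBA (2.08, adjusted p = 5.34e-06, limma), was higher in GFP-positive cells by 1.91 (adjusted p = 1.33e-04, edgeR), and lay at 60.9 to 202 TPM in CCD against 0.06 to 28.2 TPM in cTAL. Acot3, an acyl-CoA thioesterase gene with close copies in its family, was in 15 of 23 type B and 16 of 87 type A cells (2.15, a call lost under 4 of the 17 alternatives), and was higher with c-Kit by 3.36 (adjusted p = 4.87e-06, limma). It was at 9.18 to 82.3 TPM in CCD against at most 3.06 TPM in cTAL. By contrast Lamp1, a lysosomal membrane protein gene in 21 of 23 type B cells (log2 ratio 2.83), was at 1039.7 and 1031 TPM with c-Kit and 1067 and 1046 TPM with DBA (-0.03, adjusted p = 0.696, limma) and was lower in GFP-positive cells (log2 difference -1.03, adjusted p = 0.00623, edgeR).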
